A study of Arabidopsis thaliana with 38 samples.

Results

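The genes described here are the NLR immune receptor genes of *Arabidopsis thaliana*, taken as the 151 genes, of 26925 listed, whose deposited annotation text holds NBS-LRR, TIR-NBS or NB-ARC domain. By that text, 88 are of the TIR-NBS-LRR class, 25 of the CC-NBS-LRR class, 13 are TIR-NBS genes without a named leucine-rich repeat, and 25 carry another NB-ARC or NBS-LRR description. All 151 were found in the RefSeq annotation of TAIR10.1 as protein-coding genes. The rule reads text and no expression value, and it misses some NLR genes whose annotation is worded differently, among them *ZAR1* and *ADR1-L1*.

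RNA-seq compared wild-type Col-0 with *vel3-1*, a T-DNA mutant of *VEL3* in the Col-0 background, in whole seeds at the globular embryo stage and in endosperm 24 h after the start of imbibition (24HAI). VEL3 is a nuclear protein of the VIN3 family that the study places in the central cell and early endosperm. Each group held 3 libraries, which the globular table numbers without naming the stage in its headers, and all seeds were set at low temperature. The values are TPM, in which reads are divided by gene length and scaled per library, so levels can be compared between genes on a per-length scale, but the depth behind each value is unknown because counts were not used.

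Library checks came first. *VEL3* was listed at 1.34 to 2.23 TPM in Col-0 globular libraries and at 8.30 to 13.03 TPM in those labelled *vel3-1*, and at 0 to 0.160 TPM in all 6 24HAI libraries, so directions below are those of the libraries labelled *vel3-1*. A floor was read from 4194 nuclear genes outside the NLR set whose 24HAI values are all 0. Its median was 10.0 TPM in *vel3-1* globular replicate 3, 1.44 TPM in *vel3-1* replicate 1, and 0.318 to 0.615 TPM in the remaining 4 of this stage. The summed level of 5 early endosperm markers was 31.6 to 58.1 TPM in globular seeds and 0.599 to 0.978 TPM at 24HAI, and that of 3 markers of imbibed endosperm was 114 to 161 TPM and 16559 to 20894 TPM.

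NLR proteins are intracellular receptors that detect pathogen effectors or the damage these do to host proteins. A central nucleotide-binding NB-ARC domain acts as a switch, leucine-rich repeats lie towards the C terminus, and the N terminus is a TIR domain, a coiled coil (CC) or an RPW8-like domain. Sensor NLRs signal alone or through helper NLRs of the ADR1 and NRG1 families, and activation can end in local cell death. NLR genes are usually kept at low transcript levels, since overexpressed or autoactive forms can harm the plant, and many lie in arrays of close relatives.

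The shared core of these genes is the P-loop of the NB-ARC domain, which binds the nucleotide. A stretch encoding a Walker A (P-loop) motif was found in 141 of 151 members (93.4%) and in 4.99% of 26710 coding genes of the tables. It is shown for 5 receptors that the results return to, with the 8 codons of the motif in capitals and the neighbouring codons in lower case.
ADR1: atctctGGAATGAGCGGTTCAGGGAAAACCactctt
RPS2: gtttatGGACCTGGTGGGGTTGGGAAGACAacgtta
RPM1: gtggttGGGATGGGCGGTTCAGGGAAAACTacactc
RPP1: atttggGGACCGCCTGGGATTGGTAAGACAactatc
SNC1: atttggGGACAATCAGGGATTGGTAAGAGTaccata
These stretches of TAIR10.1 lie within coding exons at chr1:12169662-12169697 for *ADR1*, chr4:13225133-13225168 for *RPS2*, chr3:2228398-2228433 for *RPM1*, chr3:16094902-16094937 for *RPP1* and chr4:9504716-9504751 for *SNC1*, the first 2 on the plus strand and the others on the minus strand. No pair of these 5 genes has the same 24 bases in the motif.

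NLR genes were low at both stages. The median of their Col-0 means was 0.746 TPM in globular seeds, against 5.25 TPM for the other 26774 genes, and 0.804 TPM against 3.32 TPM at 24HAI. A Col-0 mean of at least 1 TPM was reached by 39.7% of members in globular seeds and 45.7% at 24HAI, where the other genes reached 68.5% and 58.7%. In globular seeds 54 of 151 members lay above the upper quartile of the floor genes in all 3 Col-0 libraries. Some floor genes lie above that cut by definition, so this is not a count of members above background. At 24HAI, 18 members were listed at 0 in all 6 libraries.

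**Figure D1:**
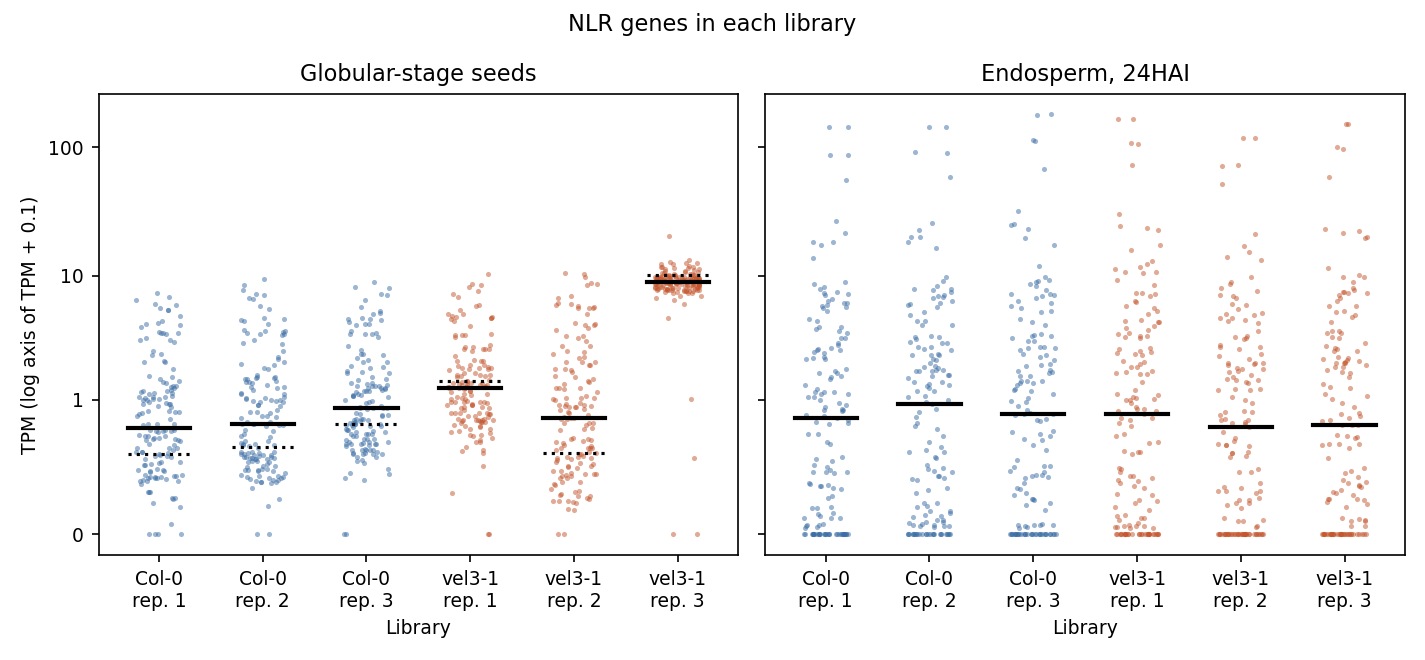
TPM of the 151 NLR genes in each library (points, on a log axis of TPM + 0.1), with the median of the members as a solid bar and, in globular seeds, the median of 4194 floor genes as a dotted bar. In *vel3-1* globular replicate 3 the members crowd around 8.98 TPM, while the remaining 5 libraries of that stage have medians of 0.565 to 1.27 TPM.

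In *vel3-1* globular replicate 3, members were listed near the floor of that library. Their median was 8.98 TPM there and their sum 1350 TPM, against sums of 188 to 282 TPM in the rest of that stage. This library held the highest value of all 6 for 148 of the 151 members. The 3 members listed below 1 TPM or at 0 in it were *AT1G58807*, *AT1G59124* and *AT1G59218*, which belong to the repeat described next.

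The highest levels among the 151 members at 24HAI were listed for duplicated genes on chromosome 1. *AT1G58807* (chr1:21780076-21784581) and *AT1G59124* (chr1:21816334-21820839), both CC-NBS-LRR genes, had identical sequence over their whole 4506 bases. *AT1G58848* (chr1:21791688-21797050) and *AT1G59218* (chr1:21827945-21833018) had identical coding sequences of 3150 bases. The copies of one kind differ from those of the other, as shown for coding bases 88 to 177 with the positions that differ in capitals. These letters separate the 2 kinds but not the copies of a kind, which have the same coding sequence.
AT1G58807: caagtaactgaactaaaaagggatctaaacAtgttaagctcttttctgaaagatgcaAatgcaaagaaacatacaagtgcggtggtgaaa
AT1G59124: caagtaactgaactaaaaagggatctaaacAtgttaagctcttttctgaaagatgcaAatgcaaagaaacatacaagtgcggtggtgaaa
AT1G58848: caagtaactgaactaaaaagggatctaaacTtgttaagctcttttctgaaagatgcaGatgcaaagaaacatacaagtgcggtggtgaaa
AT1G59218: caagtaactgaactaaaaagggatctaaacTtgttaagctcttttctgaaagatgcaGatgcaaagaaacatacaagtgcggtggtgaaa
Counted from the start codon and with *AT1G58807* as the reference, the differences in this window are A118T and A145G.

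*AT1G58807* was listed at 143, 143 and 179 TPM in Col-0 24HAI endosperm against 165, 117 and 150 TPM in *vel3-1*. Its twin *AT1G59124* differed from it by at most 0.150% in any of these libraries. *AT1G58848* was listed at 87.3, 90.8 and 114 TPM in Col-0, against 107, 72.3 and 99.3 TPM in *vel3-1*, and *AT1G59218* at 86.0, 89.7 and 112 TPM and 105, 70.8 and 96.8 TPM. The genotypes overlapped for all 4 copies. Together these copies made up 54.4% of the summed NLR level of Col-0 at 24HAI, 503 of 925 TPM. Whether reads shared by copies were counted once or for each copy is not stated, so this sum and share are uncertain too.

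In globular seeds the same copies were listed at or near 0. *AT1G58807* and *AT1G59124* were at 0 in all 6 libraries, *AT1G58848* was at 0.789 to 1.02 TPM and *AT1G59218* at 0.0624 to 0.316 TPM. None of the 100-base windows in the exons of *AT1G58807* and *AT1G59124* occurs only once in the TAIR10.1 genome, and 0.777% and 0.0262% of those of *AT1G58848* and *AT1G59218* do. Over all nuclear genes, 59 of the 185 with no unique window were listed at 0 in all globular libraries but not in all 24HAI libraries, and 0 of 26332 with 50 percent or more of their windows unique. The reverse, at 0 in all 24HAI libraries but not in all globular libraries, was listed for 9 of the 185. The levels of these 4 copies, at either stage, therefore cannot be assigned to single genes, and their change between stages is not used below.

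Most other NLR genes were distinguishable by sequence. At least 90 percent of exon windows were unique for 133 of 151 members, and fewer than 50 percent for 6, the 4 copies plus *AT4G16960* (46.0%) and *AT5G46520* (40.6%), whose values are also uncertain. Between these limits lay, among others, *AT5G46510* (53.6%), *RPP5* (70.3%), *RPP1* (70.6%) and *AT3G44670* (75.7%). Their levels, given below, are less certain than those of members with unique windows only.

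**Figure D2:**
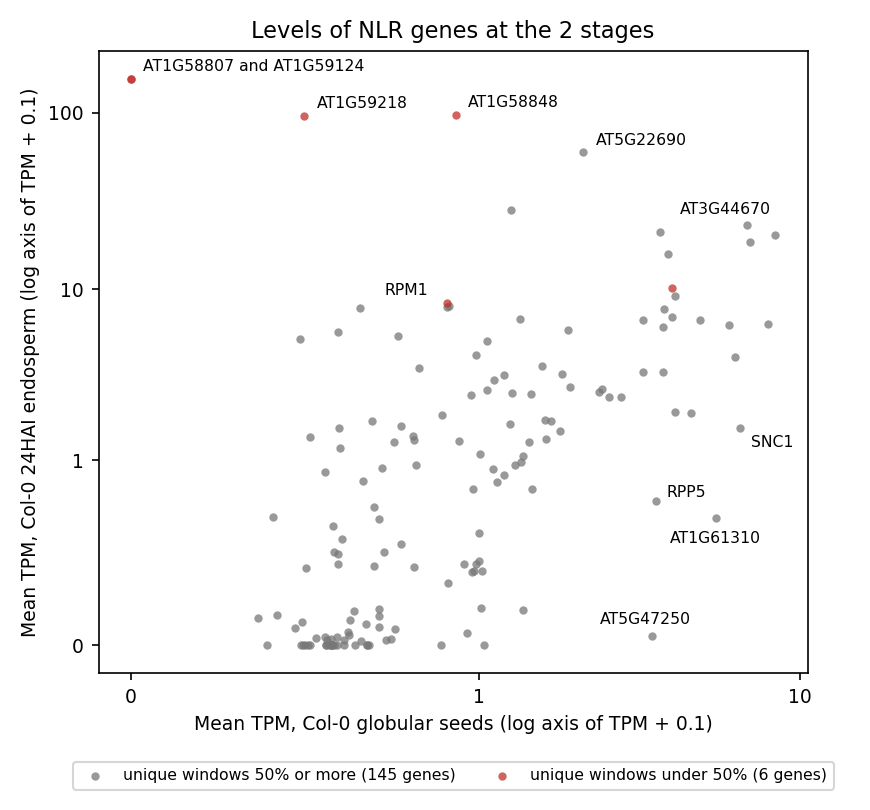
Mean TPM of each NLR gene in Col-0 globular seeds (x axis) and Col-0 24HAI endosperm (y axis), both on log axes of TPM + 0.1. Red points are the 6 genes with under 50 percent unique exon windows, and 4 of them lie at the top left, at 95.9 TPM or more at 24HAI and under 1 TPM in globular seeds.

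The NLR genes at 1 TPM or more were in part the same at the 2 stages. Over the 147 members without the repeated copies, the rank correlation of the Col-0 means was 0.69, given as a description across genes of separately normalized tables. At least 1 TPM in Col-0 was listed for 45 members at both stages, for 15 in globular seeds alone, for 24 at 24HAI alone and for 67 at neither. The 4 repeated copies are among the 24, which leaves 20 others. Levels are compared across the tables without a test, and stage cannot be told apart from tissue, whole seeds against endosperm.

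In globular seeds the highest Col-0 levels were those of *AT3G44670* (6.78, 9.46 and 8.99 TPM), *TTR1* (7.37, 8.48 and 8.07 TPM), *AT5G40910* (5.41, 7.70 and 8.03 TPM), *RPP1* (6.44, 7.04 and 7.18 TPM) and *SNC1* (5.93, 6.70 and 7.08 TPM). *TTR1* lay above *RPP1* and *SNC1* in all Col-0 libraries, while *AT3G44670* and *AT5G40910* overlapped each of the others. RPP1 recognizes an effector of downy mildew, and SNC1 is known from an autoactive mutant form.

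At 24HAI, after the repeated copies, *AT5G22690* led the members with 55.4, 58.2 and 67.5 TPM in Col-0, against 72.8, 51.9 and 58.5 TPM in *vel3-1*. It was followed by *AT5G66900* (26.7, 25.7 and 31.7 TPM in Col-0), and these 2 ranges did not overlap. *RPP1* (21.6 to 24.9 TPM), *AT5G46510* (18.4 to 25.1 TPM) and *AT3G44670* (18.3 to 23.0 TPM) came next and overlapped each other. Outside the rule, *ZAR1*, the receptor that forms a resistosome with guarded kinases, was listed at 190, 203 and 232 TPM in Col-0, against 234, 183 and 200 TPM in *vel3-1* at 24HAI, against 4.06 to 4.29 TPM in Col-0 globular seeds, with all of its windows unique.

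Several members stood apart in the opposite direction. *AT1G61310* was listed at 5.23 to 5.82 TPM in Col-0 globular seeds and at 0.270 to 0.635 TPM in Col-0 at 24HAI. *AT5G47250* went from 2.92 to 4.26 TPM in the first table to between 0 and 0.0179 TPM in the second. These genes were chosen after their values were seen.

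NLR genes lay in arrays. With neighbours joined across gaps of up to 100000 bases, 118 members fell into 31 groups and 33 stood alone, and chromosomes 1 and 5 held 50 and 54 members. The largest group, of 11 members, spans chr5:18114461-18332920 from *LAZ5* to *RRS1*. At 24HAI its Col-0 means ran from 0 to 6.68 TPM.

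The 8 members around *SNC1* and *RPP5* on chromosome 4 (chr4:9488466-9565569) show how unlike neighbours were. *SNC1* fell from first place in this group in globular seeds, at 5.93 to 7.08 TPM in Col-0, to 1.44 to 1.74 TPM at 24HAI. *AT4G16900*, the next gene, held 3.44 to 4.61 TPM and 8.63 to 9.81 TPM. *RPP5*, a downy mildew receptor gene, was at 3.22 to 4.14 TPM and 0.441 to 0.639 TPM. Its relative *RPP4* was at 0.328 to 0.658 TPM, within the range of the floor, and at 0.0140 to 0.0425 TPM at 24HAI. *RLM3*, a TIR-NBS gene needed against necrotrophic fungi, was listed at 0 in all 24HAI libraries. Levels of neighbours in this array thus spanned from 0 to 9.19 TPM in the Col-0 means at 24HAI.

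**Figure D3:**
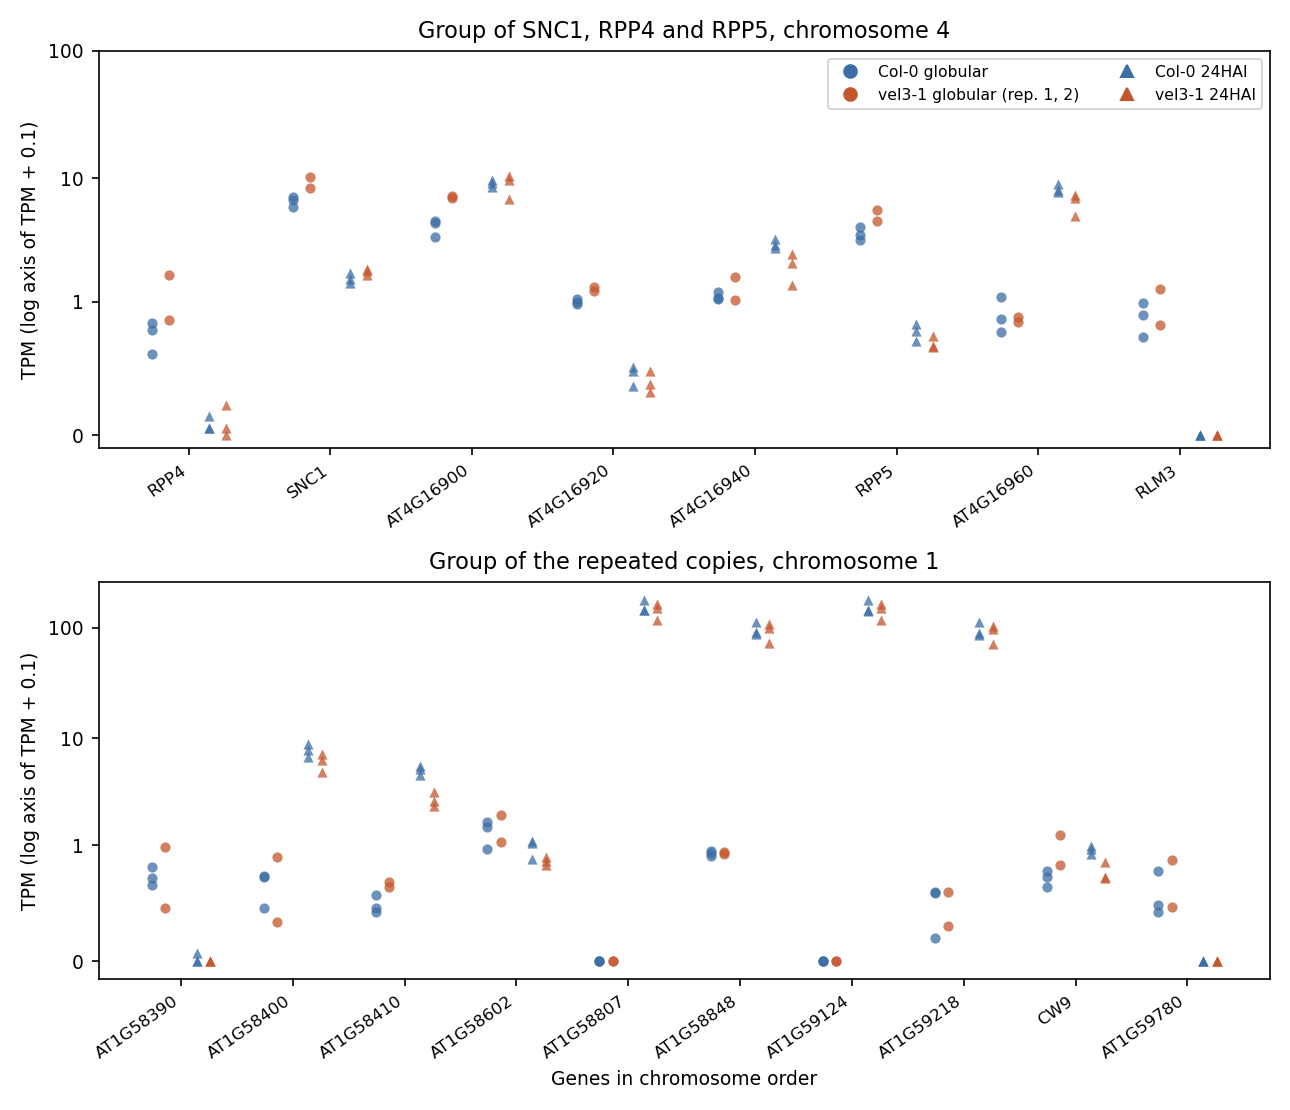
TPM in each library (log axis of TPM + 0.1) of the 8 NLR genes around *SNC1* and of the 10 around the repeated copies, in chromosome order, with circles for globular seeds, triangles for 24HAI endosperm, blue for Col-0 and orange for *vel3-1*. *vel3-1* globular replicate 3 is not drawn, and the 4 repeated copies are the triangles at 70.8 TPM and above.

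Of 44 receptors and helpers studied by name that were listed, 35 are members, and 20 of them reached 1 TPM in Col-0 globular seeds and 19 at 24HAI. Among the helpers, *ADR1*, which acts with EDS1 and PAD4, was listed at 3.08, 3.43 and 3.45 TPM in Col-0 globular seeds and 7.09, 5.87 and 7.21 TPM at 24HAI. In *vel3-1* at 24HAI it was at 10.6, 8.02 and 8.87 TPM, above all Col-0 libraries, a difference of 0.39 on the log2 scale (standard error, SE, 0.13, limma adjusted p = 0.126). *AT5G66910*, beside *AT5G66900* on chromosome 5, was at 3.66 to 4.11 TPM and 5.92 to 6.34 TPM in Col-0. The helper genes *ADR1-L1* and *ADR1-L2*, outside the rule, were at 5.44 to 6.54 TPM and 17.4 to 19.8 TPM in Col-0 at 24HAI.

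RPM1 and RPS2 are CC-type receptors that watch over the immune regulator RIN4. *RPM1* was at 0.621 to 0.942 TPM in Col-0 globular seeds and at 7.48, 7.02 and 9.23 TPM at 24HAI, where the libraries labelled *vel3-1* held 12.4, 8.94 and 10.2 TPM and overlapped with Col-0. *RPS2* was at 1.15 to 1.70 TPM and 0.807 to 1.34 TPM in Col-0, ranges that overlap. *SUMM2*, which monitors a MAP kinase cascade, was at 1.01 to 2.38 TPM and 3.23 to 3.36 TPM. *RPP8* was at 0.128 to 0.202 TPM, *RPP13* at 0.522 to 0.784 TPM and *LOV1*, the victorin sensitivity gene, at 0.592 to 0.760 TPM in Col-0 at 24HAI. *AT1G58602* was at 0.729 to 1.12 TPM and *AT1G50180* at 0.337 to 0.660 TPM in the same libraries.

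Among the TIR-type receptors, *RPS4* and *RRS1* work as a pair in which RRS1 carries a WRKY decoy domain, and the genes lie head to head with 27 bases between them. In Col-0 globular seeds they were at similar levels, 4.41, 5.43 and 5.06 TPM for *RPS4* and 4.77, 4.14 and 5.01 TPM for *RRS1*. At 24HAI *RPS4* was at 6.13, 6.72 and 7.18 TPM and *RRS1* at 1.67 to 2.15 TPM, with no overlap. The second head-to-head pair, *AT5G45060* and *TTR1*, 64 bases apart, was at 2.41 to 2.88 TPM and 7.37 to 8.48 TPM in globular seeds and at 2.17 to 2.69 TPM and 6.14 to 6.65 TPM at 24HAI. *TTR1* thus stayed above its partner in every Col-0 library of both tables.

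Other TIR-type receptors ranged widely at 24HAI. *RPS6* was at 7.20 to 8.28 TPM in Col-0, *LAZ5*, tied to a cell death mutant, at 3.92 to 4.56 TPM, and *AT4G19510* at 2.21 to 3.06 TPM. *AT5G18360* was at 1.59 to 2.16 TPM, *AT4G12010* at 0.834 to 1.08 TPM, and *AT5G46520*, for which a minority of windows is unique, at 8.96 to 11.9 TPM. *WRR4*, a white rust receptor gene, *CSA1* and *AT1G17610* were at no more than 0.352 TPM in Col-0. *AT1G17600*, which overlaps *AT1G17610* on the other strand, was at no more than 0.0236 TPM, and *RLM1*, *AT1G17615* and *AT3G04210* were listed at 0 in all 6 libraries.

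In globular seeds no NLR gene passed the threshold, which asked for a Benjamini-Hochberg adjusted p below 0.05 together with a 2-fold change, by limma on log2(TPM + 1). The fit covered 147 members with a mean of at least 1 TPM. Of these 0 were higher and 0 lower, where 1.71% and 0.369% of all 26593 tested genes were. At an unadjusted p under 0.05, 2 members were higher and 0 lower, against 8.07% and 3.19% of all tested genes, and limma without the trend gave the same counts for members. Without the trend, 0 of all 26593 tested genes passed the threshold in either direction. The median standard error of the log2 difference was 0.95 for members, with the smallest, 0.29, for *AT3G44670*. At the median standard error, which came from the trend over all genes, a 2-fold difference in a member was not detectable.

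Of the 147 members, 85 reached the minimum of 1 TPM only through *vel3-1* replicate 3, so their direction was fixed by the filter. The counts and medians over all 147 are therefore descriptions, with 147 differences above 0 and a median of 0.92 on the log2 scale, where that of all tested genes was 0.50. Without that replicate, the median of the other 62 members was 0.21 and that of all tested genes 0.14, and 57 of the 62 were above 0. That fit still included *vel3-1* replicate 1, whose floor also lay above that of Col-0. Median-ratio scaling gave 0.60 for members and 0.10 for all genes. After quantile normalization the members' median was -0.16, with 34 of 149 above 0, and that of all genes -0.02. With the floor subtracted it was -0.41 for members, with 4 of 34 above 0, and -0.21 for all genes. The direction of the NLR genes as a group in globular seeds therefore depends on the scaling.

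With all libraries, and with the same limit, 41 of 147 members (27.9%) had all 3 libraries labelled *vel3-1* above all Col-0 libraries, where 20% of all tested genes did, and 0 had them below, where 3.97% did. Without replicate 3, 28 of 62 (45.2%) were above, against 26.8% of all tested genes, and 0 below, against 10%. These counts still include *vel3-1* replicate 1, whose floor median was 1.44 TPM, against 0.318 to 0.615 TPM in Col-0. The part of that floor in them was not tested. In the fit without replicate 3, 0 members passed the threshold, where 2.14% of all genes were higher and 0.647% lower. *vel3-1* replicate 2, whose floor lay within the range of Col-0, was above all 3 Col-0 libraries for 40 of 59 members and below all 3 for 5, against 56.5% and 20.3% of 18405 genes, a count chosen after seeing the data. Its median log2 difference from Col-0 was 0.26 for members and 0.19 for all genes.

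*AT4G16900* and *AT5G40910* had the lowest unadjusted p. *AT4G16900* was at 3.44, 4.61 and 4.46 TPM in Col-0, against 7.21, 6.94 and 12.5 TPM in *vel3-1*, with no overlap and a difference of 0.90 on the log2 scale (SE 0.39, limma adjusted p = 0.286). Without *vel3-1* replicate 3 the difference was 0.65 (limma adjusted p = 0.0696). *SNC1*, its neighbour, was at 8.47, 10.3 and 13.2 TPM in *vel3-1*, above all Col-0 libraries, and its difference without that replicate was 0.46 (limma adjusted p = 0.149). *AT5G40910* was at 8.57, 8.80 and 20.2 TPM in *vel3-1*, a difference of 0.66 (SE 0.30, limma adjusted p = 0.347), and without replicate 3 the difference was 0.28 (SE 0.18, limma adjusted p = 0.412). In an exact permutation test the smallest two-sided p for 3 libraries against 3 is 0.1.

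Markers of seed tissues differed between the genotypes in globular seeds, in both directions within a list. The summed level of 4 early embryo markers was 48.1 to 83.6 TPM in Col-0, against 21.3, 19.7 and 46.4 TPM in *vel3-1*. In Col-0 most of this sum was *LEC1* (log2 difference -1.78, limma adjusted p = 3.05e-18), while *WOX2* and *DRN* had differences of 0.92 and 0.70 and *WOX8* of -0.58, none of which passed. In *vel3-1* replicate 3, *WOX2* (9.78 TPM), *DRN* (7.88 TPM) and *WOX8* (11.4 TPM) lay near the floor of that library, which enters these differences and the sum of 46.4 TPM. In *vel3-1* replicates 1 and 2, *WOX8* was at 1.15 and 1.43 TPM, below Col-0 (3.77 to 6.91 TPM). *WOX2* and *DRN* overlapped with Col-0 in them. Of the 5 early endosperm markers *AGL62* (1.80) and *MINI3* (1.25) were higher, *FIS2* and *ZOU* had differences of -0.995 and -0.993 with an adjusted p under 0.05, and *IKU2* did not pass. The sum of 7 seed coat markers was 533 to 577 TPM in Col-0, against 606, 723 and 380 TPM in *vel3-1*, on both sides of Col-0, and of these *MUM2* was higher (1.68). The call was lost under 5 of the alternatives for *AGL62* and under 7 for *MINI3*. For *LEC1* and *MUM2* it was lost under 1, limma without the trend. The part of these tissues in the NLR values was not tested, and in whole seeds fewer cells of a type and less RNA per cell cannot be told apart.

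**Figure D4:**
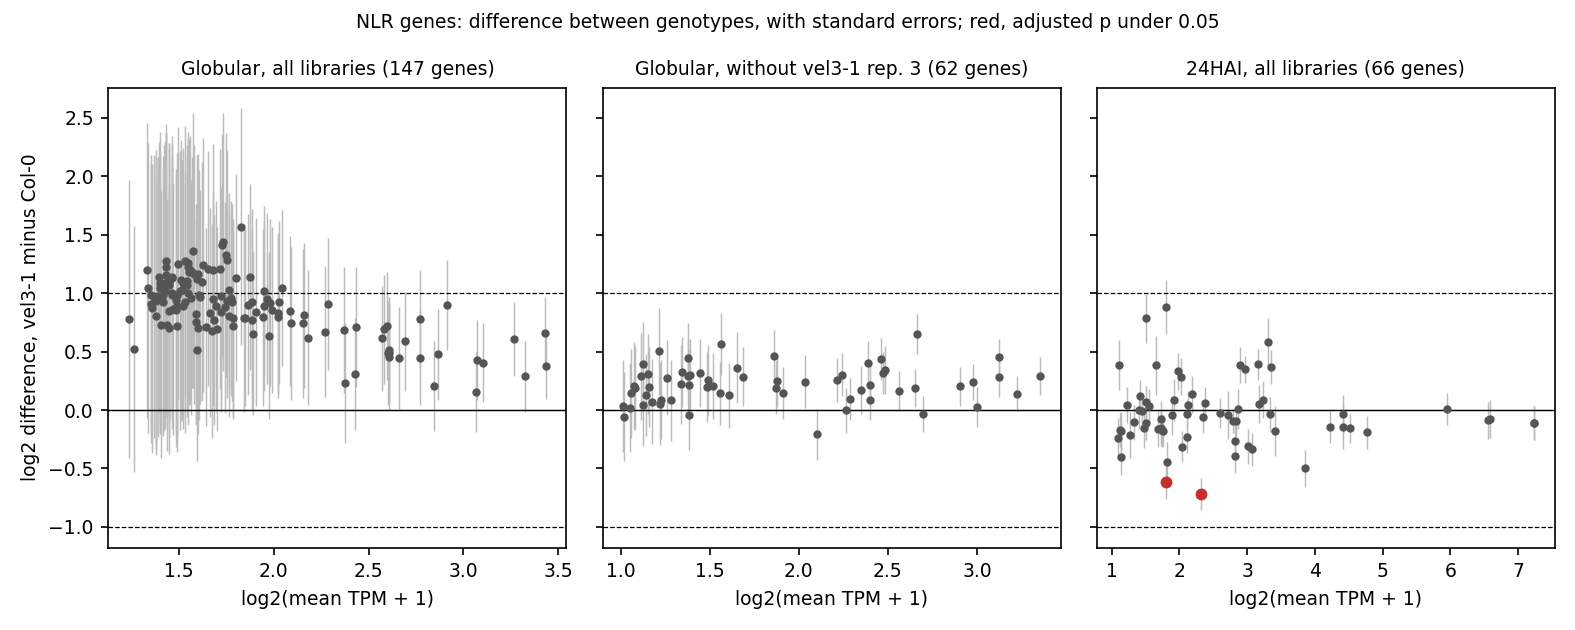
Log2 difference of each tested NLR gene between the genotypes (*vel3-1* minus Col-0, with its standard error) against log2 of its mean TPM + 1, for globular seeds with all libraries (147 genes), globular seeds without *vel3-1* replicate 3 (62 genes) and 24HAI endosperm (66 genes). Dashed lines mark 2-fold, no point is called beyond them, and the 2 red points at 24HAI are *AT1G58410* and *AT1G63880*, with an adjusted p under 0.05.

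At 24HAI, *AT1G58410* and *AT1G63880* were lower in the libraries labelled *vel3-1* by less than 2-fold, and no NLR gene passed the 2-fold threshold. The fit covered 66 members, of which 0 were higher and 0 lower, where 1.7% and 0.697% of all 15918 tested genes were. At an unadjusted p under 0.05, 7 members were higher and 8 lower, shares of the members close to the 11.9% and 9.88% of all tested genes, and limma without the trend gave 8 and 8. The median difference was -0.08 for members and 0.00 for all genes, and the median standard error was 0.15, so the spread was much smaller than in globular seeds. All 66 differences lay between -0.72 and 0.88 on the log2 scale. With no overlap between the genotypes, 7 members (10.6%) were above and 10 (15.2%) below, where 12.5% and 14.5% of all tested genes were.

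With no fold minimum 2 members were lower, where 2.94% of all tested genes were, and 0 higher, where 4.66% were. *AT1G58410*, a CC-NBS-LRR gene of the repeat region (chr1:21701185-21704982) whose exon windows are all unique, was at 4.59, 5.67 and 5.31 TPM in Col-0, against 3.25, 2.41 and 2.66 TPM in *vel3-1*. All Col-0 libraries lay above all *vel3-1* libraries. The log2 difference was -0.72 (SE 0.14, limma adjusted p = 0.0184), and over the alternatives its adjusted p ran from 0.00576 to 0.0961, the highest without Col-0 replicate 3.

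*AT1G63880*, a TIR-NBS-LRR gene (chr1:23712216-23716206), was at 3.77, 2.63 and 3.23 TPM in Col-0, against 1.64, 1.70 and 1.87 TPM in *vel3-1*, again with no overlap. The difference was -0.61 (SE 0.15, limma adjusted p = 0.0419), with adjusted p from 0.0116 to 0.169 over the alternatives, again highest without Col-0 replicate 3. The other 3 tested members of its array, *AT1G63730*, *AT1G63740* and *AT1G63750*, had differences of -0.16, -0.03 and -0.21 and did not pass.

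The largest positive differences were those of *AT4G14370* and *RPS2*, which did not pass. *AT4G14370*, a TIR-NBS-LRR gene (chr4:8279634-8283535), was at 1.23, 1.78 and 1.23 TPM in Col-0, against 4.97, 2.19 and 3.54 TPM in *vel3-1*, a difference of 0.88 (SE 0.23, limma adjusted p = 0.0562). Without *vel3-1* replicate 2 it was 1.12 (limma adjusted p = 0.0321) and passed the 2-fold threshold, as 1.26% of all tested genes did in that direction. *RPS2* (chr4:13224338-13227872) was at 0.807, 1.34 and 1.05 TPM in Col-0, against 3.55, 1.74 and 2.55 TPM in *vel3-1*, a difference of 0.79 (SE 0.21, limma adjusted p = 0.0601). For both genes all *vel3-1* libraries were above all Col-0 libraries.

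**Figure D5:**
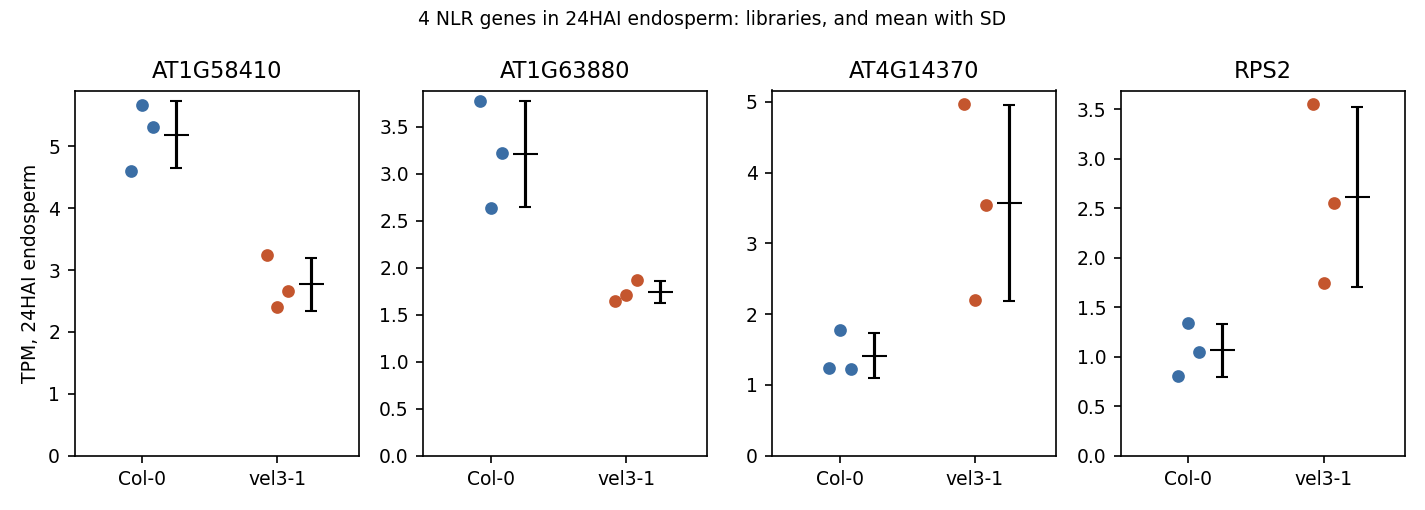
TPM of 4 NLR genes in 24HAI endosperm, with a point per library and the mean and SD beside them (n = 3 per genotype). The Col-0 libraries lie above those labelled *vel3-1* for *AT1G58410* and *AT1G63880* and below them for *AT4G14370* and *RPS2*, without overlap.

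The bases before 2 of these genes are shown because both hold W-boxes, the binding motif of WRKY factors. Their log2 differences at 24HAI had opposite signs, but only that of *AT1G63880* had an adjusted p under 0.05. Binding of WRKY factors was not tested. The motif was searched as TTGACC or TTGACT on both strands in the 250 bases before the annotated gene start, and 43.0% of members held it, against 28.5% of 26714 nuclear genes. Capitals mark it, at chr4:13224088-13224337 on the plus strand for *RPS2* and at chr1:23716207-23716456 on the minus strand for *AT1G63880*.
RPS2: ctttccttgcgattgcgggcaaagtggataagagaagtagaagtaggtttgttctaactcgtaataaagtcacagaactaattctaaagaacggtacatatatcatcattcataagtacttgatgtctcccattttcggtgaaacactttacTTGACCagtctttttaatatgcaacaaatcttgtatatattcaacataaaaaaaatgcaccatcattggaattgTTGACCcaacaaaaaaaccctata
AT1G63880: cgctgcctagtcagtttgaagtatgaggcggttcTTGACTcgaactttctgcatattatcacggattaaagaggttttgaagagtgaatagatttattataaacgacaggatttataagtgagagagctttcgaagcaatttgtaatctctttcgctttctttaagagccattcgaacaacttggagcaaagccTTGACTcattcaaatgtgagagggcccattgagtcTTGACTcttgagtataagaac
*RPS2* holds 2 matches and *AT1G63880* holds 3. Members at 1 TPM or more in Col-0 at 24HAI held the motif in 46.4% of cases and the others in 40.2%, so the share was similar at both levels.

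The remaining members with an unadjusted p under 0.05 at 24HAI had smaller differences. *AT5G35450* was at 13.8, 16.3 and 17.5 TPM in Col-0, against 13.1, 8.54 and 11.4 TPM in *vel3-1* (log2 difference -0.50, limma adjusted p = 0.104), and *AT5G48620*, also of the CC-NBS-LRR class, had a difference of -0.39. *AT1G72950*, a TIR-NBS gene, was at 6.61, 6.91 and 6.86 TPM in Col-0, against 15.7, 9.73 and 7.78 TPM in *vel3-1* (log2 difference 0.58, limma adjusted p = 0.154). The 8 others, *ADR1* and *RPM1* among them, had differences between -0.44 and 0.39.

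Some markers differed between the genotypes at 24HAI too. The summed level of the 4 early embryo markers was 32.0 to 41.1 TPM in Col-0, against 19.8 to 22.3 TPM in *vel3-1*, without overlap and with 1 or 2 of the 4 at 0. Nearly all of it was *WOX2*, which had a difference of -0.72 (limma adjusted p = 0.00702). *WOX2* was at 31.9 to 41.0 TPM in Col-0 at 24HAI and at 0.540 to 1.69 TPM in Col-0 globular seeds. It was therefore not particular to early embryos here, and this sum is no measure of embryo material. Of the 3 markers of imbibed endosperm *MAN7*, a mannanase gene, was higher (log2 difference 1.58, limma adjusted p = 0.0464), a call lost under 8 of the alternatives. *EPR1* (0.07) and *EXPA2* (0.81) did not pass, and the summed level of the 3 overlapped between the genotypes. *MAN7* was at 107 to 124 TPM in Col-0 globular seeds and at 15.7 to 58.7 TPM in Col-0 at 24HAI, so it was not particular to imbibed endosperm here. The part of these markers in the NLR values was not tested.

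The genotype difference of no NLR gene was shown to differ between the stages. In the interaction term of a limma fit over 12 libraries, 0 of 111 tested members passed in either direction, where 0.55% and 1.07% of all 24350 tested genes did. At an unadjusted p under 0.05, 10 members were lower at 24HAI relative to globular seeds, where 11.9% of all tested genes were. By that measure 0 were higher, where 988 of the 24350 were. Without *vel3-1* globular replicate 3 only 70 members reached the minimum of 1 TPM. For members that reached it only through that library, the direction was set by the filter. These counts are therefore descriptions, with 1 of the 111 differences above 0. The smallest adjusted p was 0.180, for *AT5G35450*. Without *vel3-1* globular replicate 3, *AT1G58410* and *AT1G63880* passed (limma adjusted p = 0.0203 and 0.0227), and without replicate 2 *AT4G16900*, *AT5G35450*, *AT5G40090* and *AT5G48620* did. In those fits 4.54% and 12.7% of all tested genes were lower, above the shares of the members.

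Proteins that work with NLRs were read from 5 fixed lists of 37 genes. None passed the 2-fold threshold at either stage, of 36 tested in globular seeds and 27 at 24HAI. At 24HAI 4 had an adjusted p under 0.05, all under 2-fold, where 4.66% of all tested genes were higher and 2.94% lower at that threshold. They were chosen here for it. *NDR1*, which CC-type receptors such as RPS2 signal through, was at 16.3, 16.3 and 15.0 TPM in Col-0, against 12.003, 8.38 and 7.37 TPM in *vel3-1* (log2 difference -0.75, limma adjusted p = 0.0274). *ICS1*, the salicylic acid synthesis gene, was at 16.1, 13.6 and 15.3 TPM and 9.78, 11.97 and 9.29 TPM (difference -0.50, limma adjusted p = 0.0432). *PEPR1*, a surface receptor for danger peptides, had a difference of -0.43, and *PBL2*, the decoy kinase read through ZAR1, was at 6.85 to 7.397 TPM in Col-0, against 10.2 to 11.6 TPM in *vel3-1* (difference 0.56, limma adjusted p = 0.0140).

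EDS1 forms complexes with PAD4 or SAG101 that link TIR-type receptors to the helpers. *EDS1* was at 0.134 to 0.379 TPM and *PAD4* at 0 to 0.0750 TPM in Col-0 24HAI endosperm, and at 0.315 to 0.629 TPM and 0.122 to 0.371 TPM in Col-0 globular seeds, close to the floor medians of those libraries. *SAG101* was at 2.18 to 2.66 TPM and 1.75 to 3.14 TPM in the same 2 sets of libraries. *RIN4* was at 14.9 to 16.8 TPM and *PBS1* at 20.6 to 23.3 TPM in Col-0 at 24HAI. The chaperone partner *SGT1B* was at 62.8 to 70.1 TPM there. *PR1*, the salicylic acid output marker, was at no more than 0.314 TPM in any 24HAI library.

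For mature endosperm the deposited table lists 640 genes, 4 of them NLR genes, *AT1G58848*, *AT1G59218*, *AT2G14080* and *AT5G18360*. *AT1G58848* was the highest, at 0.732, 1.96 and 0.633 TPM in Col-0, against 3.36, 1.28 and 1.38 TPM in *vel3-1*, which overlap. *AT5G18360* was at 0.426, 0.194 and 0.498 TPM in Col-0, against 0.940, 0.801 and 0.587 TPM in *vel3-1*, without overlap, as 27.7% of the listed genes were. It was the only 1 of the 4 members to do so. How the genes of that table were chosen is not stated in it, so these values are a description with no test. The other 147 NLR genes are not analysed here at that stage.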

How the data were processed

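RNA-seq of whole globular-stage seeds, mature endosperm and 24HAI endosperm was read from the deposited TPM tables. The authors trimmed reads with cutadapt 1.9.1, mapped them to TAIR10 with STAR 2.5, counted them per gene with featureCounts and deposited the values as TPM. How TPM were made from counts is not stated, and TPM carry no depth, so the precision of single values is unknown. Globular column headers give the genotype and a number but no stage, so these libraries were assigned by group and are named by that number. No other per-sample column was present (0), and 20 ChIP-seq samples are not analysed here.

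Log2(TPM + 1) values were fitted per stage with limma 3.58.1 (R 4.3.3, trend of variance on mean) restricted to genes averaging 1 TPM or more across the 6 libraries, and p-values were adjusted by Benjamini-Hochberg over all genes tested. Calls needed an adjusted p under 0.05 and 2-fold. An interaction fit used 12 libraries. P-values measure the spread between these libraries, which limma shares across genes. In the globular fit with all libraries, each gene's variance was taken wholly from the trend over all genes. Standard errors and p-values of that fit therefore do not measure the spread of the single gene. The steps were tested on simulated data.

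Gene models and sequences came from RefSeq TAIR10.1. Named genes were the members of fixed receptor lists, the 5 highest members in Col-0 at each stage and members past the threshold, with partner lists given by counts. One list member that this rule names is not reported here. Genes named beyond this rule, below the threshold, were chosen after their values were seen. The members and lists were chosen with earlier results of these data known. Alternatives covered the pseudocount (0.1 TPM), the filter, scaling, floor subtraction, limma without the trend, the fold minimum, a replicate block and leaving out each library. The count for *vel3-1* globular replicate 2 alone and the alternatives for genes outside the rule were added after seeing the data.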

Additional observations from a re-analysis of the deposited data

How the results depend on the processing

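The counts of called NLR genes in globular seeds stayed at 0 in both directions under every alternative run. At 24HAI 2 members were lower with no fold minimum, and leaving out single libraries gave 0 to 1 higher, the 1 being *AT4G14370* without *vel3-1* replicate 2. For the difference between stages, quantile normalization gave 1 higher, and leaving out single libraries gave 0 to 4 lower, with 4 without *vel3-1* globular replicate 2 and 2 without replicate 3, where 12.7% and 4.54% of all tested genes were lower. The cause of these changes was not tested.

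The median log2 difference over members changed sign in globular seeds after quantile normalization (-0.16) and floor subtraction (-0.41), and ran from 0.21 to 1.33 with single libraries left out. At 24HAI it ran from -0.16 to 0.030 over those fits. For the difference between stages it was 0.092 after quantile normalization and 0.30 after floor subtraction, against -0.86 in the main fit. The medians of all tested genes in these 3 fits were 0.015, 0.22 and -0.42. Of 421 alternative values of 28 single genes, 0 changed sign, 7 passed newly and 22 no longer passed. Of the 7, that of *AT4G14370* came without *vel3-1* replicate 2, and the others passed only because the fold minimum was dropped. Most of the 28 genes were chosen for a low p in the main fit, so a change of sign was unlikely.

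The library numbers did not pair the samples by correlation of deviations (0.07, 0.18 and 0.31 in globular seeds, -0.39, 0.02 and 0.22 at 24HAI). With the replicate block 0 members were called in either stage, and the adjusted p of *AT1G58410* and *AT1G63880* was 0.0755 and 0.116 by limma. Depth is unknown, so low values, those near the globular floor above all, are the least certain.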
